A study of Mus musculus with 2 samples.

Results

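The variable genes of the antibody light chains, Igkv for kappa and Iglv for lambda, were examined in single cells of the inflamed mouse colon. The members were all genes in the 2 deposited count matrices whose symbol begins with Igkv or Iglv, 112 of 28695 symbols, of which 109 were Igkv genes on chromosome 6 and 3 were Iglv genes on chromosome 16. One library came from wild-type (WT) C57BL/6 mice and 1 from C57BL/6 mice labelled Elf-1 KO (Elf-1-/-), all 8 to 10 weeks old and all given dextran sulfate sodium (DSS), which injures the colonic epithelium. Each library held the dissociated proximal colon, distal colon and rectum of 3 mice whose cells were pooled before loading, so cells of the 3 mice cannot be told apart, and untreated mice were not analysed here. With 1 library per group no difference was tested, and all intervals are 95% intervals for counting error only.

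A light chain V gene becomes part of an antibody when recombination joins it to a short J segment, next to the constant gene of its own chain. Each B cell normally keeps 1 productive light chain, kappa or lambda, and in the mouse most cells carry kappa. Plasma cells, the antibody-secreting descendants of B cells, transcribe that light chain at a very high level, so the V gene can be read from their RNA. In the gut most plasma cells make IgA, a class assembled into dimers by the joining protein Jchain.

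The germline ends of 10 members are shown, because the end of the V gene carries the first part of the antigen-binding loop CDR3 and because near-identical members limit how reads can be assigned. Each sequence is the last 90 bases of the V exon in GENCODE M21 on GRCm38, 5′ to 3′ on the gene's own strand. Capitals mark the codon of the conserved cysteine that precedes CDR3. The 3 lambda genes come first:
Iglv1: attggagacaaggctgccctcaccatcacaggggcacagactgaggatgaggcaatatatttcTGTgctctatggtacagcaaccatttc
Iglv2: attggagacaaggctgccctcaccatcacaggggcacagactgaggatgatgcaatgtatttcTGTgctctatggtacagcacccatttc
Iglv3: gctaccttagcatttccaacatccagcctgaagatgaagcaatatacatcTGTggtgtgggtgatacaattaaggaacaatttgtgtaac
They lie at chr16:19085017-19085106, chr16:19260401-19260490 and chr16:19241207-19241296, all on the minus strand. Iglv1 and Iglv2 differed at 3 of the 90 bases, written G51T, A57G and A83C with the Iglv1 base first and positions counted from 1 at the 5′ end shown, and were 97.0% identical over the 305 bases of the V exon. Iglv3 was 54.0% identical to Iglv1 and keeps 37 bases after the cysteine codon, against 24 in Iglv1 and Iglv2. The kappa genes shown next are the leading gene in both libraries, a similar pair from the far end of the locus, and 4 genes with unequal use between the libraries:
Igkv6-23: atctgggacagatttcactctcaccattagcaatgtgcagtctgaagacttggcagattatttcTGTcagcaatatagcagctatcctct
Igkv1-110: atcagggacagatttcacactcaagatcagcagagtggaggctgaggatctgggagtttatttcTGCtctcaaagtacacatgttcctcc
Igkv1-117: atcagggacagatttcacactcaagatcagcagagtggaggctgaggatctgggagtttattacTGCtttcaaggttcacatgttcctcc
Igkv8-21: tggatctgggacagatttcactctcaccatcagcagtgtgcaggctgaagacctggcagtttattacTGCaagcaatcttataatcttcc
Igkv3-10: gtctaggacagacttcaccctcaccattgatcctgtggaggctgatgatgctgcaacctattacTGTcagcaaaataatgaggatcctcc
Igkv4-58: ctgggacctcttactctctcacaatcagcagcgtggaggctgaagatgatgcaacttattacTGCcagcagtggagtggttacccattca
Igkv5-39: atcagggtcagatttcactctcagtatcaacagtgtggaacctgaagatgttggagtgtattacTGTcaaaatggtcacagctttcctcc
Igkv6-23 ends at chr6:70260409-70260498 on the minus strand, Igkv1-110 at chr6:68271178-68271267 and Igkv1-117 at chr6:68121738-68121827 on the plus strand. Igkv8-21 ends at chr6:70314895-70314984 on the minus strand and Igkv3-10 at chr6:70573141-70573230 on the plus strand. Igkv4-58 and Igkv5-39 end at chr6:69500254-69500343 and chr6:69900424-69900513, both on the minus strand. Igkv1-110 and Igkv1-117 were 96.8% identical over the V exon, and Igkv3-10 was 98.1% identical to Igkv3-5. Of the 112 members, 53 had a relative more than 95% identical. No source used here says how reads matching several genes were counted, so the split between such relatives is uncertain.

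The WT library held 8635 barcodes with 32481613 UMIs (unique molecular identifiers, which tag single RNA molecules) and the library labelled Elf-1 KO held 10012 barcodes with 39750319 UMIs. Filtering left 7718 and 9474 cells, at medians of 2022.5 and 2636 UMIs, of which 44 barcodes occurred in both libraries and none among plasma cells. Elf1, the gene named in the label, had 192 (187 to 197) CPM, its UMIs scaled to the total of the cells, in kept WT cells and 181 (177 to 185) CPM in the others. In plasma cells it had 72.6 (65.7 to 80.01) and 60.9 (54.0 to 68.4) CPM. The direction was the other way in B cells, with 413 (394 to 433) CPM in WT and 581 (528 to 638) in the library labelled Elf-1 KO. Which stretch of Elf1 was deleted is not stated, so these levels check nothing about the deletion, and directions follow the labels.

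Of the 112 members, 103 were listed in the WT file and 89 in the other. Both files listed 80, while 23 were listed only for WT and 9 only for the library labelled Elf-1 KO. Neither file held a gene with 0 UMIs throughout, so a gene missing from a file had no UMI to list there. Igkv4-58, with 2134 UMIs in kept WT cells, was the most abundant member listed only for WT. The annotation called 98 members V genes and 14 pseudogenes. No plasma cell of either library was assigned a pseudogene.

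Plasma cells were barcodes with at least 20 Jchain UMIs, 370 in the WT library and 381 in the library labelled Elf-1 KO. At least 2 of 5 other plasma cell genes (Mzb1, Xbp1, Sdc1, Tnfrsf17 and Derl3) were detected in 93.8% and 93.4% of them. Few cells lay near the limit: 23 and 19 kept cells had 15 to 19 Jchain UMIs, and 16 and 15 plasma cells had 20 to 24. RNA of other cells was present in this gate. The fibroblast gene Dcn had a UMI in 49.5% and 90.03% of plasma cells and the B cell gene Ms4a1 in 17.8% and 3.15%. The part of these cells or of free RNA in the V gene values was not tested.

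Light chain V genes gave a median of 128.5 UMIs per WT plasma cell, with a maximum of 990, and 91 per plasma cell of the library labelled Elf-1 KO, with a maximum of 1910. They made up 10.7 and 9.37 of every 1000 UMIs in these cells. Depth differed in the same direction, at medians of 14876 and 12658 UMIs per plasma cell. With each cell thinned to 1000 UMIs, 92.9% (89.8 to 95.3) and 92.8% (89.7 to 95.2) of plasma cells had a V gene UMI, with 3 and 7 shallower cells left out. T cells, which should lack these genes, gave 11.9% (9.47 to 14.7) and 8.21% (6.05 to 10.8) at that depth, and fibroblasts 10.5% (8.85 to 12.3) and 9.29% (8.29 to 10.4).

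**Figure D1:**
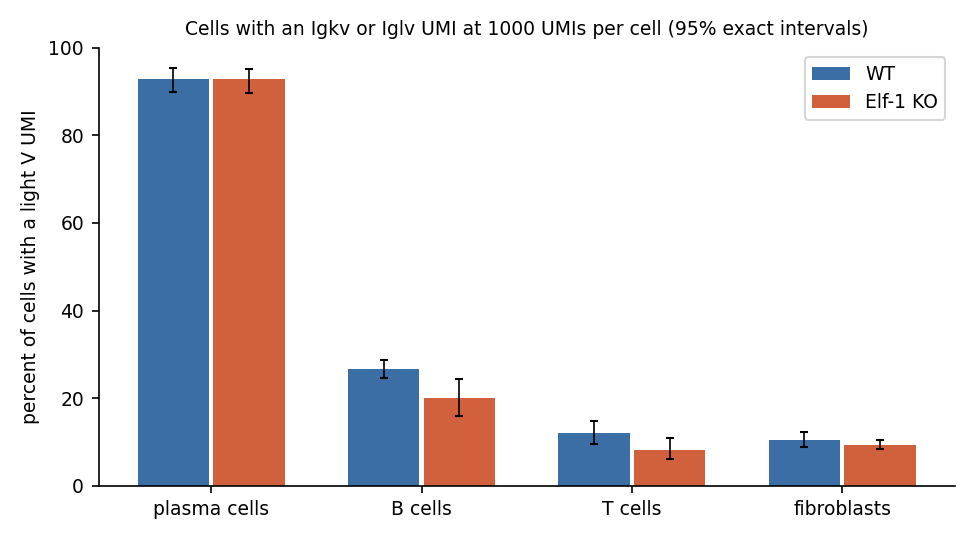
Percent of cells with at least 1 Igkv or Iglv UMI after thinning each cell to 1000 UMIs, by cell type, for the WT library (blue) and the library labelled Elf-1 KO (orange), with 95% exact binomial intervals as error bars. Plasma cells stand at 92.9% and 92.8%, B cells at 26.6% and 19.9%, and T cells and fibroblasts between 8.21% and 11.9%.

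Each plasma cell was first assigned the light chain V gene with the most UMIs, if that gene had at least 10 UMIs and at least 50% of the cell's light chain V UMIs. This assigned 292 of 370 WT cells to 45 genes and 311 of 381 cells of the other library to 54 genes. Iglv1, the main lambda V gene of the mouse, led in both, although Igkv6-23 led in the library labelled Elf-1 KO when 80% was required. It was the top gene of 78 WT cells, 26.7% (21.7 to 32.2) of those assigned, and of 59 cells, 19.0% (14.8 to 23.8), in the library labelled Elf-1 KO. Iglv3 was the top gene of 8 WT cells and of 0 of 311 cells in the other, which allows a share of up to 0.965%. Iglv2 led in no plasma cell. By this count 29.5% (24.3 to 35.0) of WT plasma cells and 19.0% (14.8 to 23.8) of the others used lambda.

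The constant genes of the same cells gave another picture. Igkc, the kappa constant gene, had more UMIs than all lambda constant genes (Iglc1 to Iglc4) in 57 of the 86 WT cells assigned a lambda V gene, or 66.3% (55.3 to 76.1). The same held for 51 of 59 such cells, 86.4% (75.02 to 94.0), in the library labelled Elf-1 KO. All of these 57 and 51 cells were Iglv1 cells. The mismatch ran one way: all 206 and 252 cells assigned an Igkv gene had more Igkc than Iglc UMIs.

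**Figure D2:**
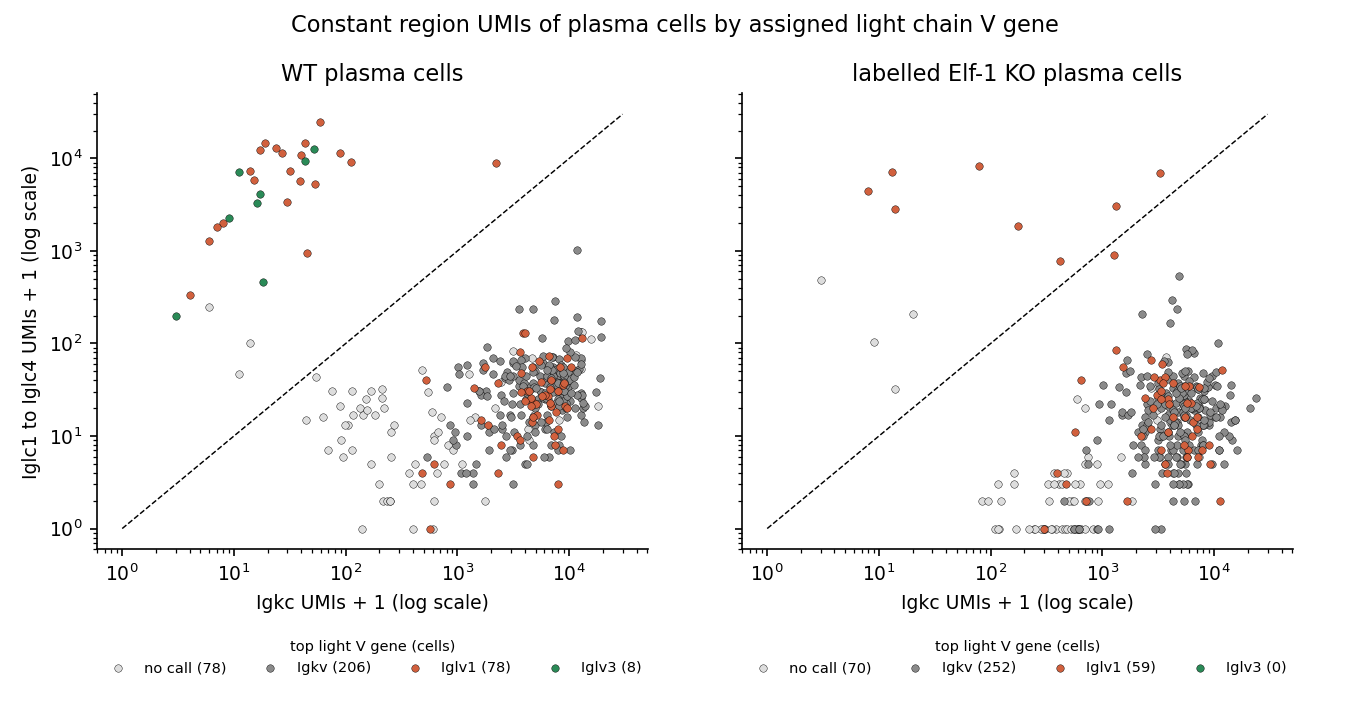
Each point is a plasma cell, with its Igkc UMIs plus 1 on the horizontal axis and its summed Iglc1 to Iglc4 UMIs plus 1 on the vertical axis, both on log scales, coloured by its top light chain V gene. The dashed line marks equal values, and 57 of 78 WT Iglv1 cells and 51 of 59 in the library labelled Elf-1 KO lie below it among the Igkv cells.

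Cells were therefore also classed by constant gene, kappa or lambda, where 1 of them led with at least 100 UMIs, a limit set after the values were seen. This gave 329 kappa and 31 lambda cells in the WT library and 367 and 11 in the other, with 10 and 3 cells left without a class. Lambda cells made up 8.61% (5.93 to 12.0) of classed WT plasma cells and 2.91% (1.46 to 5.15) of those of the library labelled Elf-1 KO. The 2 classes were far apart: lambda cells had medians of 5782 and 2809 Iglc UMIs and of 18 and 19 Igkc UMIs. Kappa cells had medians of 4787 and 4136 Igkc UMIs and of 27 and 13 Iglc UMIs. At least a 10% share of the larger constant gene was reached by the smaller in 13 and 5 cells.

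Iglv1 RNA was widespread in kappa cells. It had a median of 24 UMIs in WT kappa cells and of 12 in those of the library labelled Elf-1 KO, with maxima of 482 and 490. At least 10 Iglv1 UMIs were counted in 216 of 329 (65.7%) and 205 of 367 (55.9%) kappa cells, and none in 35 and 57. Iglv1 exceeded the top Igkv gene in 73 and 64 of them. Igkv genes together had a median of 2 UMIs in lambda cells of either library, and 84 and 103 UMIs over all of these. Iglv1 accounted for most lambda V RNA in kappa cells, where Iglv3 had 787 and 446 UMIs in all and Iglv2 had 28 and 35, against 16866 and 12932 for Iglv1.

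The Iglv1 UMIs of kappa cells came without a matching amount of lambda constant RNA. Summed over kappa cells, Iglv1 UMIs equalled 136% of Iglc UMIs in the WT library and 152% in the other. In lambda cells they equalled 3.28% and 2.48%. For comparison, Igkv UMIs stood at a median of 17.7 and 15.8 per 1000 Igkc UMIs in kappa cells, and Iglv1 at 5.51 and 3.17. Igkv followed Igkc closely from cell to cell, with a Spearman coefficient across cells of 0.93 over 329 and 0.90 over 367 kappa cells. Iglv1 followed it less closely, at 0.62 and 0.53. Cells of a library differed in depth, which enters both coefficients.

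**Figure D3:**
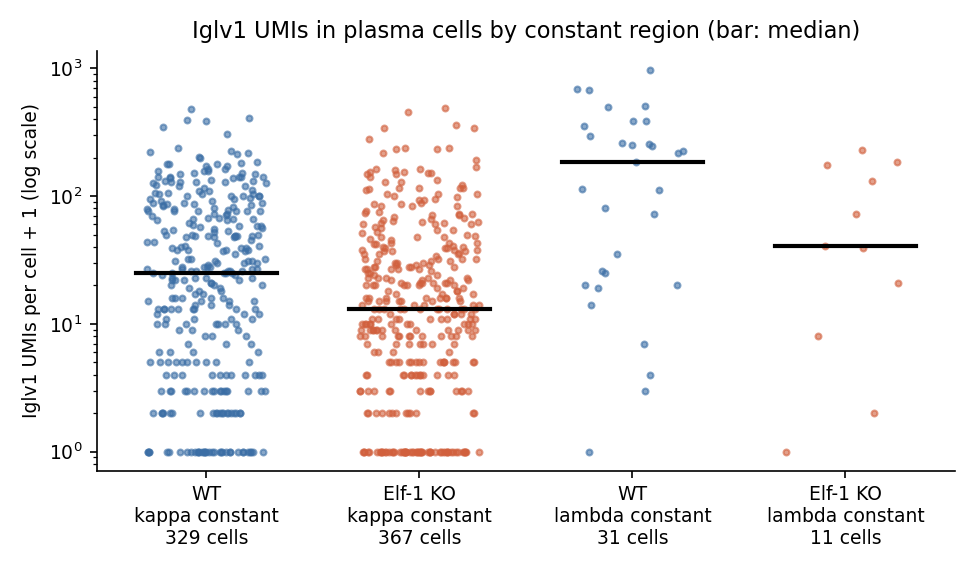
Iglv1 UMIs per plasma cell plus 1, on a log scale, for cells classed by constant gene in the WT library (blue) and the library labelled Elf-1 KO (orange); each point is a cell and bars are medians. Kappa cells reach 482 and 490 Iglv1 UMIs around medians of 24 and 12, and lambda cells have medians of 183 and 40.

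Iglv1 RNA accompanied many Igkv genes. Of the Igkv genes assigned to at least 5 kappa cells, all 15 in the WT library and 17 of 21 in the other had a median of at least 10 Iglv1 UMIs per cell. The level still varied between them. In WT cells with Igkv8-24 it ran from 24 to 184 UMIs with a median of 103 (15 cells), whereas in the 15 such cells of the library labelled Elf-1 KO it ran from 0 to 452 with a median of 9. In the library labelled Elf-1 KO the median was 68 in 14 cells with Igkv3-10 and 4 in 11 cells with Igkv8-21. An annotated antisense gene, 2010309G21Rik (chr16:19051367-19106749, plus strand), spans Iglv1, Iglc1 and Iglc3 on the other strand. It had 54 and 31 UMIs in all kappa cells. Whether counting used strand is not stated, so reads of Iglv1 and of its antisense partner cannot be told apart.

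In lambda cells V and constant genes paired by cluster, with 1 WT exception. The lambda locus holds separate clusters, in which Iglv1 lies upstream of Iglc3 and Iglc1, and Iglv2 and Iglv3 upstream of Iglc2 and Iglc4. In the WT library 19 lambda cells had Iglc1 with Iglv1, 3 had Iglc3 with Iglv1 and 8 had Iglc2 with Iglv3. The exception had Iglc2 at 50 UMIs and 3 UMIs of Iglv1. In the library labelled Elf-1 KO all 11 lambda cells had Iglc1 as their leading constant gene. Iglv1 ranged from 0 to 228 UMIs in them and had at least 20 in 8, while the other cells had 7, 1 and 0. The 8 WT pairs of Iglv3 with Iglc2 had 13 to 532 Iglv3 UMIs, and none of the 11 cells had Iglc2 as its leading constant gene.

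Within kappa cells the V gene was then taken as the top Igkv gene, and in lambda cells as the top Iglv gene, under the same limits of 10 UMIs and 50%. This assigned 276 WT kappa cells to 51 genes and 303 kappa cells of the library labelled Elf-1 KO to 58. The top gene held a median of 97.6% and 98.1% of a cell's Igkv UMIs. With lambda cells included, 305 and 311 cells were assigned to 53 and 59 genes. All shares of single genes given next are of these 305 and 311 cells.

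Of the 8 most used kappa genes of each library, 5 were the same (Igkv6-23, Igkv1-110, Igkv1-117, Igkv8-24 and Igkv10-96), with ties taken in order of symbol. Igkv10-96 counts among them only through such a tie. It had 11 cells in the library labelled Elf-1 KO, as did Igkv12-44, Igkv8-21 and Igkv8-30. Igkv6-23 was the top gene of 35 WT cells, 11.5% (8.12 to 15.6), and of 29 cells, 9.32% (6.33 to 13.1), in the library labelled Elf-1 KO. Its UMIs per assigned cell ran from 19 to 358 with a median of 129 in WT cells, and from 39 to 448 with a median of 121 in the others. All 35 and 29 of these cells had Igha, the IgA constant gene, as their leading heavy constant gene. Igkv1-110 led in 22 and 19 cells, 7.21% (4.58 to 10.7) and 6.11% (3.72 to 9.38), and its relative Igkv1-117 in 15 and 22, 4.92% (2.78 to 7.98) and 7.07% (4.49 to 10.5). Igkv8-24 led in 15 cells of each library, Igkv8-30 in 12 and 11, and Igkv12-46 in 13 and 10. The intervals of both libraries overlapped for Igkv6-23, Igkv1-110, Igkv1-117, Igkv8-24, Igkv8-30 and Igkv12-46.

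Other genes led in more cells of the WT library. Igkv4-58 was the top gene of 13 WT cells, 4.26% (2.29 to 7.18), with 79 to 248 UMIs in each. It was the top gene of 0 of 311 cells in the library labelled Elf-1 KO, which allows up to 0.965%. Igkv5-39 also led in 13 WT cells, with 33 to 160 UMIs, and in 0 of the 311, where its total over all kept cells was 4 UMIs. Igkv10-96 led in 21 WT cells, 6.89% (4.31 to 10.3), and in 11 others, 3.54% (1.78 to 6.24). Igkv3-2 led in 17 cells, 5.57% (3.28 to 8.77), and in 7, 2.25% (0.910 to 4.58). The intervals of Igkv10-96 and of Igkv3-2 overlapped between the libraries, which does not show equal use. Their shares of assigned kappa cells, the library labelled Elf-1 KO minus WT, differed by -3.98 (-7.75 to -0.207) and -3.85 (-7.15 to -0.547) percentage points. Their odds ratios over all assigned cells were 0.496 (0.212 to 1.10) and 0.391 (0.135 to 1.01), and these intervals include 1.

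In the other direction, Igkv3-10 was the top gene of 2 WT cells, 0.656% (0.0795 to 2.35), and of 14 cells, 4.50% (2.48 to 7.44), in the library labelled Elf-1 KO. Igkv8-21 led in 1 WT cell, with 193 UMIs, and in 11 cells of the other library, 3.54% (1.78 to 6.24), with 37 to 1670 UMIs and a median of 134. A single cell thus held 1670 of the 3363 Igkv8-21 UMIs of those plasma cells. Igkv9-120 led in 1 and 7 cells and Igkv12-44 in 5 and 11. Among the 23 members with at least 8 assigned cells over both libraries, the interval of the odds ratio lay below 1 for 4 (Igkv4-58, Igkv5-39, Iglv1 and Iglv3) and above 1 for 2 (Igkv3-10 and Igkv8-21), with the library labelled Elf-1 KO over WT. For the other 17 it included 1. A member could reach 8 cells through 1 library alone, as Igkv4-58, Igkv5-39 and Iglv3 did in the WT library and Igkv3-10 and Igkv8-21 in the other, so these counts support nothing further. The intervals count cells of 1 library of pooled mice, which are not replicates of a condition.

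**Figure D4:**
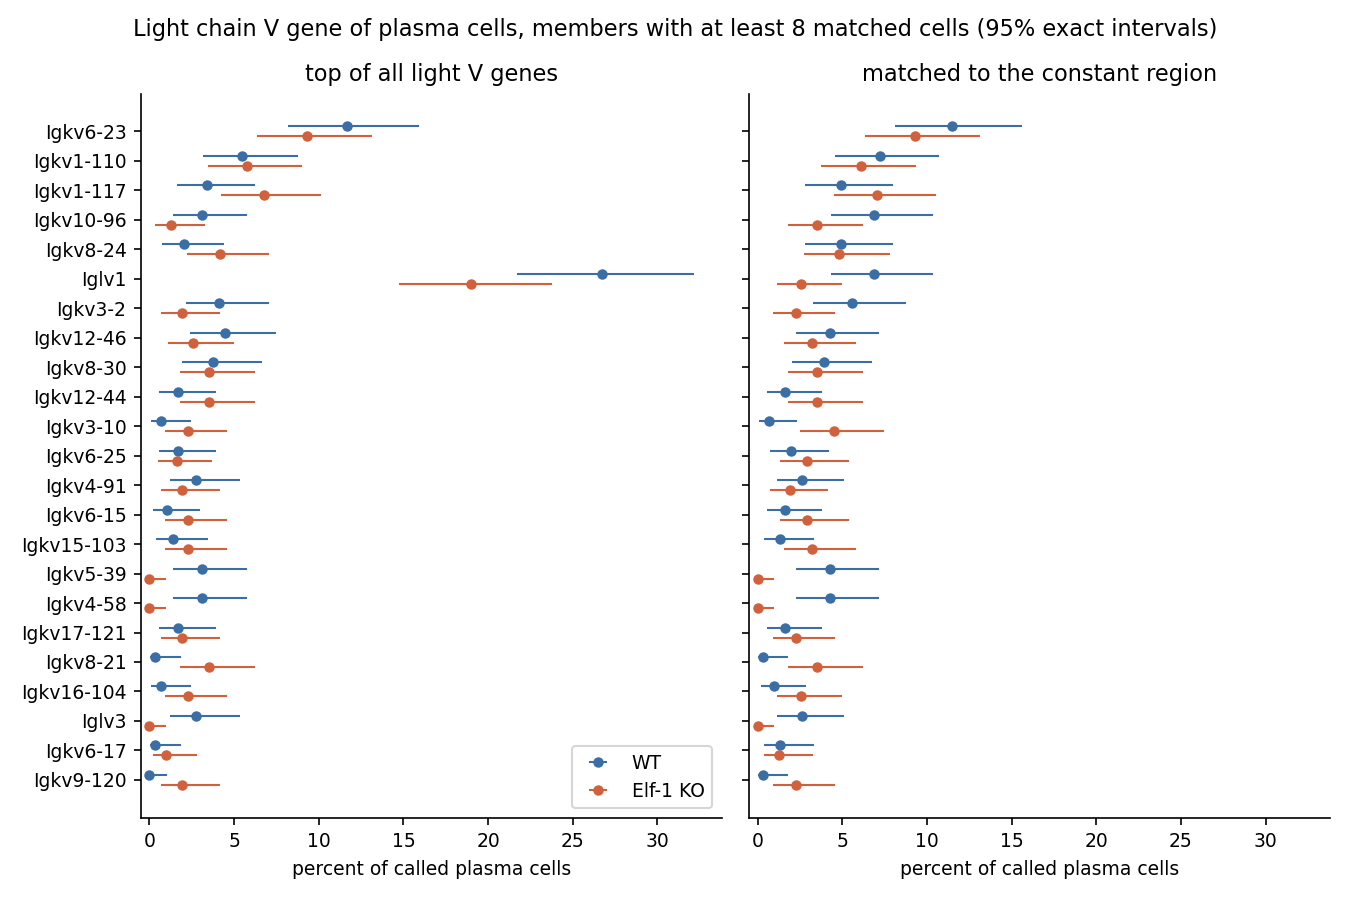
Percent of assigned plasma cells by light chain V gene, for the 23 members with at least 8 cells under the constant gene rule, in the WT library (blue) and the library labelled Elf-1 KO (orange). Bars are 95% exact intervals, or at 0 reach the share that 3 cells would make; Iglv1 stands at 26.7% and 19.0% when all V genes compete (left) and at 6.89% and 2.57% when the V gene is matched to the constant gene (right).

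Kappa use was spread over many genes in both libraries. The chance that 2 assigned kappa cells share their gene was 4.77% (3.86 to 5.68) in the WT library and 3.46% (2.84 to 4.09) in the other. These intervals overlap, which does not show equal chances. The effective number of genes, the number that would give the same Shannon entropy if used equally, was 28.7 and 36.3. At an equal number of 276 cells the number of genes expected was 51 and 56.3. The 7 most used genes held at least 50% of assigned WT kappa cells, and the 10 most used did so in the other library. The libraries shared 41 kappa genes, 80.4% of the 51 and 70.7% of the 58. Summing the smaller share of each gene, the usage of the libraries overlapped by 65.0%, and over the 68 genes used in either, shares had a Pearson coefficient of 0.75 and a Spearman coefficient of 0.42. Of the 95 Igkv genes not annotated as pseudogenes, 27 led in no kappa cell of either library.

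The Igkv genes span a long stretch upstream of the J segments, from 18.4 to 3166 kb before Igkj1. The span was divided into proximal, middle and distal sections of equal length. In both libraries the proximal section, nearest to Igkj1, supplied more kappa cells than either other section, 55.4% (49.4 to 61.4) and 52.5% (46.7 to 58.2), and both intervals include 50%. It also holds the most genes: of the 95 Igkv genes not annotated as pseudogenes, 38 are proximal, 32 middle and 25 distal. The middle section supplied 23.6% (18.7 to 29.0) and 15.5% (11.6 to 20.1). The distal section, which holds Igkv1-110 and Igkv1-117, supplied 21.01% (16.4 to 26.3) in the WT library and 32.0% (26.8 to 37.6) in the library labelled Elf-1 KO. The distal intervals did not overlap. In the first library 58 cells used 10 distal genes and in the second 97 cells used 18, and these gene numbers were not brought to equal cells. Genes on the plus strand, which share the orientation of Igkj1 and Igkc, were used by 34.1% (28.5 to 40.0) and 45.5% (39.8 to 51.3) of kappa cells. By V family, family 6 led with 20.7% (16.03 to 25.9) and 17.8% (13.7 to 22.6). Family 5 had 6.16% (3.63 to 9.68) and 1.98% (0.730 to 4.26), and family 9 had 0.362% (0.00917 to 2.00) and 4.29% (2.30 to 7.23).

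**Figure D5:**
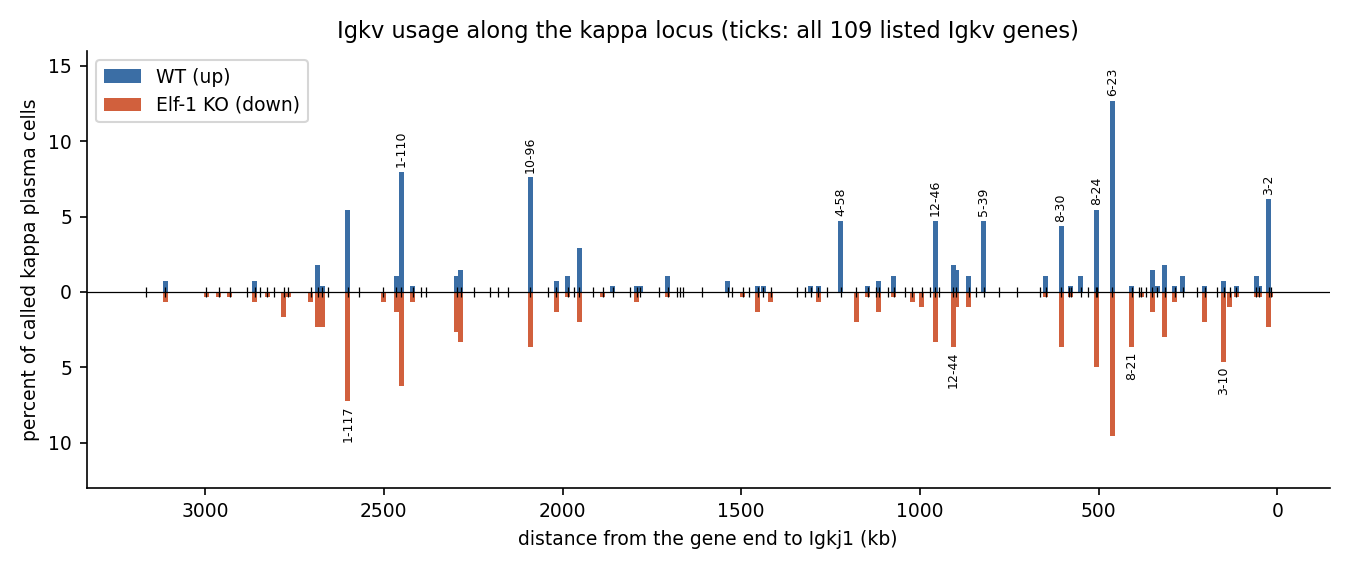
Percent of assigned kappa plasma cells by Igkv gene against the distance of the gene from Igkj1 in kb, with the WT library drawn upward in blue and the library labelled Elf-1 KO downward in orange; ticks mark all 109 Igkv genes. Genes leading in at least 11 cells of a library are named without the prefix Igkv, and the distal section holds 21.01% and 32.0% of cells.

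The heavy chain V gene could be assigned in the same way, with at least 10 UMIs and 50% of Ighv UMIs, in 200 WT cells and 186 others that had a light chain gene. These made 104 and 103 different pairs of heavy and light genes, of which 19 occurred in both libraries, 18.3% and 18.4% of the pairs. The shared pairs held 42 of the 200 cells and 54 of the 186. Igkv8-24 had the most such cells: 9 cells in each library paired it with Ighv9-3 and 5 in each with Ighv3-6, together 14 of its 15 and all 14 cells with a heavy gene. Ighv9-3 took part in 6 of the 19 shared pairs, and was the heavy gene of 34 and 39 cells. Other pairs were found in 1 library. Igkv4-58 was with Ighv2-2 in 7 WT cells, Igkv10-96 with Ighv1-26 in 9 and Igkv6-23 with Ighv1-39 in 9. In the library labelled Elf-1 KO, Igkv12-44 was with Ighv9-3 in 7 cells and Igkv3-10 with Ighv1-11 and with Ighv1-61 in 5 each. Junction sequences were not analysed here, so cells with the same gene pair are not shown to be a clone, and which mouse they came from cannot be told apart.

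By leading heavy constant gene, 315 WT plasma cells were IgA, 53 IgG and 2 IgM, and 356, 21 and 4 in the library labelled Elf-1 KO. Among IgA cells the lambda constant share was 9.003% (6.07 to 12.7) and 2.83% (1.37 to 5.15). Iglv1 had a median of 26 UMIs in IgA kappa cells of the WT library and of 12 in those of the other, and of 12.5 and 59 in IgG kappa cells.

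Summed UMIs of a gene over all plasma cells, scaled to their total, were also compared. Of the members, 67 reached 50 UMIs over both libraries, and a member could do so through 1 library alone. Of these, 24 (35.8%) were at least 2-fold higher in the library labelled Elf-1 KO, where 4.08% of all 6659 genes were. At least 2-fold lower were 20 (29.9%), against 11.1% of all genes. The median log2 ratio was -0.04 over the members and -0.28 over all genes, and with TMM scaling these became 0.17 and -0.07. Iglv1 had 4237 CPM in the WT library and 2944 in the other, a ratio of 0.695 (0.680 to 0.710). Iglv3 had 511 and 97.3 CPM, a ratio of 0.190 (0.172 to 0.210). Both intervals treat UMIs as independent, whereas V gene UMIs come in blocks per cell, so the intervals are too narrow. In the WT library 2080 of the 2870 Iglv3 UMIs lay in the 31 lambda cells.

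Genes that act with the members were read in the same way. Of the light chain constant genes, Iglc1, Iglc2 and Iglc3 were at least 2-fold lower, with ratios of 0.314, 0.0798 and 0.121, and Igkc had a ratio of 1.13. Among joining segments only Iglj3 reached 50 UMIs, with a ratio of 0.354. Of 7 heavy constant genes measured, Ighg3 (3.51) and Ighm (20.1) were at least 2-fold higher, and Ighg1 (0.187) and Ighe (0.270) lower. Such sums can rest on few cells: 2 and 4 plasma cells were IgM, and Iglc2 led in no lambda cell of the library labelled Elf-1 KO. How these UMIs were spread over cells was not tested. In the list of recombination and surrogate light chain genes only Vpreb3 was measured, with a ratio of 0.780. Of 14 measured regulators of transcription in B and plasma cells, Pax5 (61 and 1 UMIs) and Spib (67 and 2) were lower and none was higher. The median log2 ratio over the 14 was -0.44. Pax5 and Spib are B cell factors, and they moved with the Ms4a1 share given above, whose part in them was not tested.

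B cells, defined by at least 2 genes of a B cell set that included Cd79a, Cd79b and Ms4a1, with under 20 Jchain UMIs, numbered 2066 in the WT library and 458 in the other. Of these, 456 and 180 had exactly 2 of the genes. Their light chain V RNA was too sparse for most cells to be assigned. A V gene UMI was present in 40.3% and 25.5% of B cells, at medians of 1472.5 and 1254 UMIs per cell, but also in 21.4% and 19.97% of T cells and 37.7% and 35.0% of the deeper fibroblasts. Thinned to 1000 UMIs, 26.6% (24.6 to 28.7) and 19.9% (15.9 to 24.4) of B cells had one, above the T cells and fibroblasts of the same library. Dcn had a UMI in 15.5% and 54.1% of B cells, and its part in these values was not tested.

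With at least 3 UMIs and 50% required, 40 WT B cells and 4 of the library labelled Elf-1 KO were assigned. In the WT library 8 of the 40 had Iglv3, a share between 9.05% and 35.6%, 7 had Iglv1, 4 Igkv6-15, 3 Igkv1-117 and 1 Iglv2. Igkv1-135, Igkv12-44, Igkv12-46 and Igkv8-30 had 2 each. The 4 cells of the other library had Iglv1 (2 cells), Igkv12-41 and Igkv8-21. The chance that 2 assigned cells share their gene was 7.95% (3.15 to 12.7) in the WT library, and 4 cells are too few for a value in the other. Lambda genes led in 16 of the 40 cells, a share between 24.9% and 56.7%, and in 2 of the 4.

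The constant genes gave a lower lambda share in B cells too. With at least 10 constant UMIs, 89 of 1555 WT B cells, 5.72% (4.62 to 6.996), and 7 of 226 B cells of the library labelled Elf-1 KO, 3.10% (1.25 to 6.28), had more Iglc than Igkc. This limit was passed by 75.3% and 49.3% of B cells, but also by 8.27% and 10.6% of T cells and 17.3% and 18.6% of fibroblasts. Lambda shares there were 7.14% (1.98 to 17.3) and 0 of 64 in T cells, and 3.02% and 0.330% in fibroblasts. The part of free RNA in the B cell shares was not tested. The lambda B cells of the WT library led with Iglc1 in 39, Iglc2 in 38 and Iglc3 in 12. Iglv3 was a larger part of lambda V RNA in B cells than in kappa plasma cells: per 100 Iglv1 UMIs there were 64.9 and 43.8 Iglv3 UMIs in B cells (122 of Iglv3 and 188 of Iglv1 in the WT library, 7 and 16 in the other) and 4.67 and 3.45 in kappa plasma cells. Lambda plasma cells had 30.0 in the WT library and 1.12 in the other, and the B cells were not split by constant gene for this value. T cells had 16.7 in the WT library, from 8 and 48 UMIs, and 0 Iglv3 UMIs against 16 of Iglv1 in the other.

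Summed over B cells, 9 members reached 50 UMIs. All 9 did so in WT B cells alone and had 2 to 16 UMIs in the other library, so their directions support nothing further. None of the 9 was at least 2-fold higher in the library labelled Elf-1 KO, where 3.57% of 7682 genes were. At least 2-fold lower were 6, where 8.17% of genes were. The 6 were Igkv3-2 (51 and 2 UMIs), Igkv12-46 (50 and 2), Iglv3 (122 and 7), Igkv6-15 (52 and 3), Igkv1-110 (72 and 6) and Iglv1 (188 and 16), in cell sums of 4172160 and 755185 UMIs. The interval of the ratio included 1 for Igkv1-110. In the lists, Iglc3 (0.493), Iglj3 (0.255), Ighg1 (0.0568), Vpreb3 (0.400) and the mismatch repair gene Msh6 (0.242) were among the genes at least 2-fold lower in B cells, and no listed gene was at least 2-fold higher.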

How the data were processed

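Per the file headers, the authors deposited unnormalized UMI counts, 1 matrix of genes by barcodes per library. The submitters' processing notes name cutadapt 1.17, STAR 2.6.1a, featureCounts 2.0.1 and GRCm38. How UMIs were collapsed, multi-mapped reads treated and strand used is not stated there. A barcode was kept if it had 500 UMIs or more over 200 genes or more, with mitochondrial UMIs no higher than 25%. Scrublet (scanpy 1.11.5, expected rate 0.06) marked 2.67% as doublets in the library labelled Elf-1 KO (260 removed). It marked 0.0246% in the WT library, where the top 5% of scores, 406, were removed instead. B cells also needed at least 3 UMIs over their gene set and more of these than of T cell, fibroblast, epithelial, myeloid or neutrophil markers. T cells needed 2 of Cd3d, Cd3e, Cd3g and Trac, and fibroblasts 3 of Col1a1, Col1a2, Col3a1 and Dcn with 10 UMIs. Both needed no UMI of B cell genes including Cd79a and Ms4a1, fibroblasts also none of Cd3e, and under 20 Jchain UMIs.

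Shares carry exact Clopper-Pearson intervals, ratios exact conditional intervals, and the same-gene chance an analytic variance (scipy 1.17.1). A 0 allows the share of 3 cells. Sequences and positions come from GENCODE M21 (biopython 1.88). Only the ratio intervals and the top gene calls were run on simulated data. There, UMIs were drawn independently for the ratios, and a fixed share of free RNA was added for the calls. Real V gene UMIs come in blocks per cell, so the simulation does not cover that. The constant gene rule and the same-gene chance were not simulated. Named genes were the 8 leading members per library and cell type, the Iglv genes, and members with at least 15 cells whose odds interval excluded 1, under the top gene rule. Igkv4-58, Igkv5-39, Igkv3-10 and Igkv9-120, the constant gene classes and heavy pairs were chosen after values were seen. The members and lists were chosen with earlier results of these data known.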

Additional observations from a re-analysis of the deposited data

How the results depend on the processing

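No paired analysis was possible because each group is 1 library. Keeping doublets, requiring 50 Jchain UMIs, adding plasma markers or accepting 3 UMIs left the plasma shares inside their intervals. Taking the V gene from the chain of the constant gene moved all of them, in WT to 6.89% Iglv1, 4.42% same-gene chance and 9.51% lambda, and in the library labelled Elf-1 KO to 2.57%, 3.34% and 2.57%. This alternative, the kappa cell results and the looser B gate were chosen after seeing the data. Requiring 80% of V UMIs left 118 and 161 assigned cells and gave 20.3% Iglv1 in WT, and 9.94% Iglv1, 4.35% same-gene chance and 9.94% lambda in the other, where Igkv6-23 then led in place of Iglv1. Thinning to 1000 UMIs, which left 98 and 75 assigned cells, gave 40.8% Iglv1, 19.6% and 46.9% in WT, and 38.7%, 17.2% and 38.7% in the other. In kappa cells it left 55 and 46, with Igkv6-23 at 25.5% and 17.4% and same-gene chances of 9.43% and 6.76%. In WT B cells, a minimum of 1 UMI gave 8.22% Iglv3 and 21.4% lambda. Iglv1 led there in place of Iglv3 at 1 UMI and after thinning, which left 6 assigned cells. With doublets kept and with 3 of 4 B genes, Iglv1 and Iglv3 tied. In B cells of the library labelled Elf-1 KO, 80% and 3 of 4 B genes each left 3 assigned cells. These had 3 different genes, so none led. At 1 UMI no gene had more cells than Igkv6-23. A minimum of 10 UMIs gave no value in B cells of either library, nor did thinning in B cells of the library labelled Elf-1 KO. With 10 rather than 50 UMIs, 2 of 34 members were at least 2-fold higher in B cells and 9 at least 2-fold lower. The share lower was then 26.5%, against 66.7% of the 9 members at 50 UMIs. Of the shares and counts that answer a comparison, which carry no sign, 23 moved and 106 did not. For single genes 10 values moved and 102 did not. Thinning turned the sign of the difference in kappa share, the library labelled Elf-1 KO minus WT, for Igkv1-110 from -1.70 to 3.24 percentage points and for Igkv1-117 from 1.83 to -1.11. The cause was not tested, except that thinning and the 80% limit leave fewer cells.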

Other observations

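UMIs of 2 Igkv genes were counted in some kappa plasma cells. A second Igkv gene with at least 5 UMIs and at least 20% of the UMIs of the top gene was present in 14 of 276 assigned WT kappa cells (5.07%) and in 5 of 303 (1.65%) of the library labelled Elf-1 KO. Igkv4-58 with Igkv3-2 was the only such pair seen in 2 cells, both WT. Igkv3-10 with Igkv3-5, which are 98.1% identical, was among the pairs of the library labelled Elf-1 KO. Remaining doublets, free RNA and reads split between relatives were not tested as sources. Doublets were removed by different rules in the WT library and the other.

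A few cells with abundant kappa constant RNA had little Igkv RNA. Of cells with at least 1000 Igkc UMIs, 277 and 299, the top Igkv gene had under 10 UMIs in 7 and 8, and under 3 in 4 and 5.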
